A study of Mus musculus with 9 samples.

Results

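The genes named *Zfp900* to *Zfp999* form a numbered block of mouse zinc finger genes, and every gene with such a symbol was taken, whatever its level. The rule found 64 genes among the 54232 genes of the count table. RNA was compared between naïve mouse embryonic stem cells (mESCs) and primed epiblast-stem-cell-like cells (mEpiSCs) that were made from them, at passage 5 (P5) and passage 15 (P15), with 2 libraries per state and passage. Naïve cells grew in serum and LIF (S/L medium), and primed cells grew in Fgf2 and Activin A (F/A medium). All 8 libraries came from a single line of C57 x CBA background, OG2, that carries a GFP reporter under the distal *Oct4* promoter, and both states were kept on a layer of mouse embryonic fibroblast (MEF) feeder cells. One library of MEFs alone completed the 9. The study calls the 2 libraries of a group biological repeats, while the labels do not say whether they were separate cultures, and the p-values measure the spread between these libraries.

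Zinc finger proteins of this kind carry rows of C2H2 fingers, short loops that each hold a zinc ion and read a few bases of DNA. Most also carry a KRAB domain, which binds Trim28 (also called Kap1), and Trim28 in turn brings in the histone methyltransferase Setdb1 and heterochromatin proteins, so that the bound DNA is silenced. Many such proteins bind transposable elements in early embryos and embryonic stem cells, and their genes lie in tandem clusters that have expanded by duplication and differ between species.

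All 64 members were in the count table, and 63 of them are annotated as protein coding, with *Zfp939* listed as a transcribed pseudogene. Translation of the annotated coding sequences gave at least 3 finger patterns in 59 of the 63 proteins, with a median of 11 and a maximum of 21 in *Zfp974*. A KRAB pattern was found in 58 of 63. Among all 640 mouse genes with at least 3 finger patterns it was found in 264, or 41.2%. The 58 were counted whatever the number of fingers and include *Zfp935* and *Zfp993*, with 0 and 2 finger patterns. The member figure and the all-gene figure thus have different bases. The members lie on 12 chromosomes. With a gap of less than 1 Mb between neighbours, 43 of them fell into 5 clusters of at least 3 members, and 21 lay outside. The clusters were on chromosome 4 (16 members), chromosomes 2 and 17 (10 each), chromosome 7 (4) and chromosome 8 (3).

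The states were checked against marker genes. Of 10 naïve markers, 10 were lower in primed cells at P5 and 9 at P15 by the rule for a call given below, and their median level in primed cells was 13.6% of the naïve level at P5 and 4.11% at P15. Of 8 primed markers, 5 were called higher at P5 and 6 at P15. Of 4 pluripotency genes shared by both states, 3 were called lower at P5 and 2 at P15, and *Pou5f1*, the gene of Oct4, stood at 29.6% of the naïve level in primed P5 cells and at 79.0% in primed P15 cells. Fibroblast genes were expressed in all cultures. The summed level of 24 fibroblast genes was 13310 to 13417 CPM (read counts set to the same library size) in naïve P5, 9480 to 9699 in primed P5, 21279 to 22210 in naïve P15 and 16915 to 17691 in primed P15 libraries, against 85612 in MEFs, and none of the 24 was at 0 in any group mean. The sum does not stand for every gene of this list. Of the 24, 3 were called higher and 6 lower in primed cells at P5, and 5 higher and 3 lower at P15. Their median level in primed cells was 71.6% of the naïve level at P5 and 106.5% at P15. In bulk RNA, fewer cells of a type and less RNA per cell cannot be told apart.

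Summed over the 64 members, expression was lower in primed cells. The sum was 794 and 784 CPM in the naïve P5 libraries and 440.5 and 452 CPM in the primed P5 libraries. At P15 it was 993 and 908 CPM in naïve cells and 331 and 365 CPM in primed cells, and MEFs held 314 CPM. The chromosome 4 cluster made up most of this difference. It supplied 62.4% of the members' CPM in both naïve P5 libraries, and 29.8% and 30.6% in the primed P5 libraries. At P15 it supplied 66.8% and 65.5% in naïve cells and 23.2% and 21.7% in primed cells. The other 48 members summed to 298 and 294 CPM in naïve P5 and to 309 and 314 CPM in primed P5 libraries. At P15 their sum was lower in primed cells, with 254 and 286 CPM against 330.1 and 313 CPM in naïve cells. In MEFs it was 255 CPM.

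**Figure D1:**
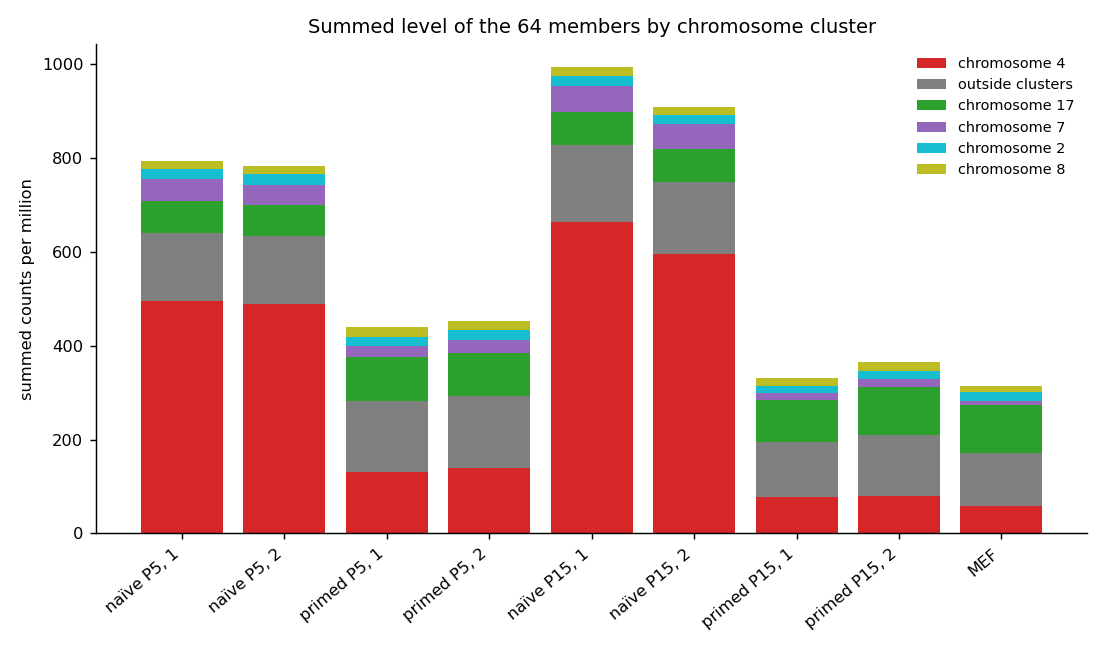
Summed CPM of the 64 members in each of the 9 libraries, stacked by chromosome cluster. The chromosome 4 segment falls from 496 and 489 CPM in naïve P5 to 131 and 138 CPM in primed P5, and from 663 and 595 CPM in naïve P15 to 76.7 and 79.1 CPM in primed P15. The other segments together hold between 254 and 330.1 CPM, and at P15 they are lower in primed than in naïve libraries.

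At P5, 62 of the 64 members had enough counts to be tested, and 61 at P15. *Zfp935* had no count in any library, *Zfp957* had 2 counts in 1 naïve P15 library, and *Zfp972* was too low at P15. A member is said to have passed, risen or fallen at an adjusted p under 0.01, and to be called when it also differed by at least 2-fold. In primed against naïve cells at P5, 16 members were called lower and 5 higher, beside 8.85% called lower and 13.5% called higher of all genes tested. At P15, 19 members were called lower and 2 higher, where 11.0% of all genes were called lower and 12.2% higher. Without the fold requirement, 19 members fell and 11 rose at P5, beside 31.1% and 31.2% of all genes. At P15, 23 fell and 3 rose, beside 28.4% and 28.2% of all genes. The median log2 fold change of the members was -0.10 at P5 and -0.42 at P15, while the median of all genes tested was 0.0078 and -0.0039 in the same order. At P15, 8 of the 61 tested members reached the count minimum through the naïve libraries only. This route into the test favours a fall, although 1 of the 8, *Zfp969*, did not pass. Without either naïve P15 library 12 members were called lower, since 7 of the 19 then missed the minimum. Scaling by library size alone shifted the log2 fold changes of all genes upward, with a median shift of 0.20 at P5 and 0.10 at P15, and at P5 the split then became 8 higher and 14 lower.

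The calls at the 2 passages, which rest on different libraries of the same line, overlapped in 18 members, of 21 called at each. All 18 moved the same way, 16 lower and 2 higher, and 13 of the 18 lie in the chromosome 4 cluster. Members called lower at both passages were 26.2% of the 61 members tested at both, beside 6.59% of all 15487 genes tested at both. Those called higher at both were 3.28% of members, beside 8.34% of all genes. Among the 16 lower at both, *Zfp936*, *Zfp978*, *Zfp981*, *Zfp985*, *Zfp986* and *Zfp989* reached the P15 count minimum through the naïve libraries only. This route into the test favours a fall at P15, and the share of such genes among all genes was not counted. Of all genes called lower at P5 and tested at both, 76.7% were also called lower at P15, and of those called higher 65.9% were again called higher. The other Zfp genes with a number in their symbol were called lower in 17 and higher in 22 of 289 at P5, and lower in 24 and higher in 20 of 286 at P15. Their median log2 fold change was 0.24 at P5 and 0.04 at P15.

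**Figure D2:**
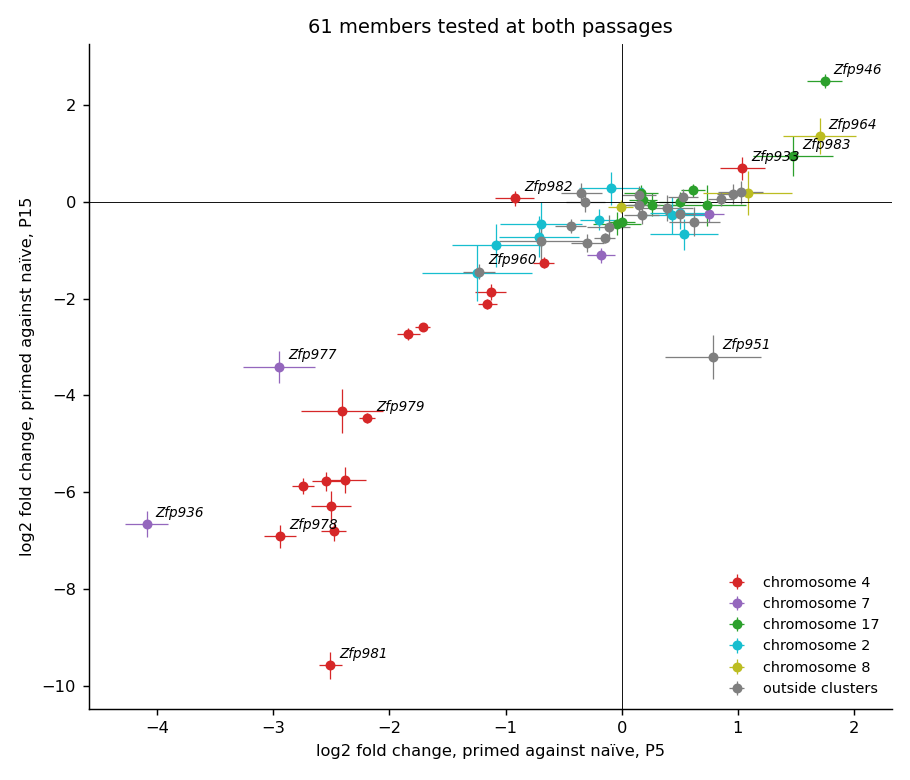
Log2 fold change of primed against naïve cells at P5 (x axis) and P15 (y axis) for the 61 members tested at both passages, with standard errors as bars and colours for chromosome clusters. Most chromosome 4 members and *Zfp936* and *Zfp977* of chromosome 7 lie far below 0 at both passages, *Zfp946* lies above 0 at both, and *Zfp951* is far below 0 at P15 only.

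The chromosome 4 cluster spans chr4:145510759-147848366 in mm10. Its 16 members encode KRAB zinc finger proteins. Their median amino acid identity to the closest other member of the 64 was 92.8%, from 70.8% for *Zfp933* to 99.7% for *Zfp991* and *Zfp993*. Identity is counted over the shorter protein, so a high value can mean a match to part of a longer protein. The *Zfp993* protein has 313 amino acids and that of *Zfp991* has 573. At P5, 13 of the 16 were called lower in primed cells and a further 2, *Zfp982* and *Zfp984*, fell by less than 2-fold. *Zfp933* alone was called higher. At P15, 14 of the 16 were called lower, and over the 16 the median log2 fold change went from -2.29 to -4.40. Leaving out *Zfp933* and *Zfp982*, primed cells kept between 12.8% and 61.3% of the naïve level at P5, and between 0.115% and 41.9% at P15.

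For 8 of the 16, the reference table of RefSeq promoters (GRCm38.p6, the mm10 build) holds a start within 100 bases of the annotated gene start. The 250 bases upstream of that start are shown for 5 of them, so that sequence and expression can be set side by side. *Zfp979*, *Zfp980* and *Zfp988* fell at both passages, *Zfp982* is a near copy upstream but was not lower at P15, and *Zfp933* is unlike the others both in sequence and in direction. Capitals mark the longest run of bases common to all 7 related promoters (those of *Zfp979*, *Zfp980*, *Zfp982*, *Zfp984*, *Zfp985*, *Zfp987* and *Zfp988*), which was picked after the expression values were seen.
Zfp979, chr4:147642509-147642758, minus strand: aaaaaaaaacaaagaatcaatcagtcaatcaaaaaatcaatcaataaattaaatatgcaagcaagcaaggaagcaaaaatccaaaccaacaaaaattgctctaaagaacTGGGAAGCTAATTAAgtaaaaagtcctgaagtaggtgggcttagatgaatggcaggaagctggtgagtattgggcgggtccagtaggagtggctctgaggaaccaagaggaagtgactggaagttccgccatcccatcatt
Zfp980, chr4:145670447-145670696, plus strand: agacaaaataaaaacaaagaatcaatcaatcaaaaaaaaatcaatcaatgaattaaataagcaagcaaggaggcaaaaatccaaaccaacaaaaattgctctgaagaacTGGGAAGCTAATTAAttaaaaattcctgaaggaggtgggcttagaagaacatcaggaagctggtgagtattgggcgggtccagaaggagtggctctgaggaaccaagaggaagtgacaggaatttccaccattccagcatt
Zfp988, chr4:147305354-147305603, plus strand: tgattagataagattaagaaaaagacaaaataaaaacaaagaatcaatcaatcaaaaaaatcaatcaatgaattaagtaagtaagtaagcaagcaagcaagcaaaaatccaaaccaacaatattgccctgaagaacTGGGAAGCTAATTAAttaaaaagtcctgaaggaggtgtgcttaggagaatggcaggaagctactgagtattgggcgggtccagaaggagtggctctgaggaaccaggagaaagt
Zfp982, chr4:147492167-147492416, plus strand: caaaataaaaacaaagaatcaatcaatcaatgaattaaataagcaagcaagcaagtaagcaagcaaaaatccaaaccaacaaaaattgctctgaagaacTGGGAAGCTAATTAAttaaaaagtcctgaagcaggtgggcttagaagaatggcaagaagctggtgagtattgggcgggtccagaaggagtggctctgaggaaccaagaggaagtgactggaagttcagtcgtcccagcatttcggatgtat
Zfp933, chr4:147848419-147848668, minus strand: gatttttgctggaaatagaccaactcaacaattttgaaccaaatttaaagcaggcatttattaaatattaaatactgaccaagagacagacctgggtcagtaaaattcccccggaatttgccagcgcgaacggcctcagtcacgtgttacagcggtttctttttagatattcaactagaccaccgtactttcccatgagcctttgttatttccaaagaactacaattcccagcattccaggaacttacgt

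The 7 related promoters were 70.4% to 90.4% identical to each other in pairwise alignment, with a median of 82%, and *Zfp982* was 87.6% identical to *Zfp979*. The *Zfp933* promoter was 50% to 54.8% identical to them. The shared run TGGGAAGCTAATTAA was defined from the 7 related promoters, so its presence in them was fixed in advance. Searched on both strands, it was found in no other of the 49 member promoters that could be read. It was found in 0.0365% of all 32851 promoter windows of the same length. Those windows take in the 7, so no enrichment can be read from this share. CG dinucleotides, the sites of DNA methylation, numbered 1 to 7 in the 7 related promoters and 8 in that of *Zfp933*, and the median over all promoter windows was 6. Among promoters of the other clusters, pairwise identity had a median of 84.4% on chromosome 2 and 52.6% on chromosome 17. Motif letters of 4 factor families were also searched on both strands. AAGGTCA, read by Esrrb, was in 0 of the 49 member promoters against 4.08% of all windows, and CCACACCC, a Klf motif, was in 0 against 3.2%. The octamer ATGCAAAT was in 1, that of *Zfp964*, against 1.6%, and TAATCC, read by Otx2, was in 5 against 6.25%. These matches are descriptions of letters in the window only.

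*Zfp981* showed the largest difference of all members at P15. Its level was 43.0 and 40.1 CPM in the naïve P5 libraries, 6.66 and 7.65 CPM in the primed P5 libraries, and 53.3 and 45.3 CPM in the naïve P15 libraries. In primed P15 cells 0 and 2 counts were left, or 0 and 0.114 CPM, and the MEF library had none. The naïve and primed libraries did not overlap at either passage. Here and below such separation of 2 against 2 libraries is a description only, as the share of all genes so separated was not counted. The log2 fold change was -2.51 ± 0.10 (SE) at P5 (adjusted p = 2.12e-19), and at P15 it was -9.58 ± 0.27 (adjusted p = 5.08e-27), and the second value depends on the prior count of the fit. The ratio of the counts themselves at P15 was 859, with an exact 95% interval of 237 to 7101 that covers counting error only.

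*Zfp979* had the highest level of all members per kb of exon, with 12.9 CPM per kb on average over the 8 naïve and primed libraries. It measured 79.7 and 80.1 CPM in naïve P5 cells and 18.2 and 15.9 CPM in primed P5 cells. At P15 it measured 116 and 104 CPM in naïve and 4.65 and 5.34 CPM in primed cells, with 1.83 CPM in MEFs. Every naïve library was above every primed one. The log2 fold change was -2.19 ± 0.07 at P5 (adjusted p = 8.19e-22), and at P15 it was -4.47 ± 0.11 (adjusted p = 1.03e-29). *Zfp978*, next in level with 11.99 CPM per kb, fell from 28.4 and 24.4 CPM to 2.98 and 3.77 CPM at P5. Its P15 levels were 30.9 and 32.6 CPM in naïve cells against 0.344 and 0.170 CPM in primed cells. The log2 fold change was -2.94 ± 0.14 at P5 (adjusted p = 1.13e-17), and at P15 it was -6.92 ± 0.24 (adjusted p = 1.35e-24). The direct count ratio at P15, from 928 and 9 counts, was 124 (exact 95% interval 64.9 to 271).

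*Zfp988*, *Zfp980* and *Zfp987* followed the same course. *Zfp988* measured 45.4 and 47.8 CPM in naïve P5, 7.06 and 6.49 CPM in primed P5, 61.4 and 55.7 CPM in naïve P15, and 1.43 and 0.568 CPM in primed P15 cells. *Zfp980* measured 36.2 and 38.1 CPM, then 5.86 and 7.21 CPM, in naïve and primed P5 cells, and 56.2 and 47.3 CPM against 0.287 and 0.625 CPM at P15. *Zfp987* went from 26.9 and 27.3 CPM to 4.03 and 5.10 CPM at P5, and from 35.1 and 34.1 CPM to 0.803 and 0.454 CPM at P15. All 3 were absent from the MEF library, where 0 counts allow up to 0.128 CPM, and in none of them did naïve and primed libraries overlap. The log2 fold changes of *Zfp988* were -2.75 ± 0.10 at P5 and -5.87 ± 0.17 at P15 (adjusted p = 8.38e-21 and 1.06e-26). Those of *Zfp980* were -2.48 ± 0.11 and -6.81 ± 0.20 (1.23e-18 and 9.08e-27), and those of *Zfp987* were -2.54 ± 0.12 and -5.78 ± 0.20 (2.82e-17 and 1.63e-24).

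*Zfp985*, *Zfp989* and *Zfp986* were lower in level and fell as well. *Zfp985* had 12.8 CPM in both naïve P5 libraries, 1.79 and 3.05 CPM in primed P5, 20.5 and 16.9 CPM in naïve P15, and 0.402 and 0.284 CPM in primed P15 cells. *Zfp989* had 11.9 and 13.4 CPM against 2.09 and 2.27 CPM at P5, and 17.5 and 14.8 CPM against 0.172 and 0.227 CPM at P15. *Zfp986* had 2.59 and 4.01 CPM against 0.646 and 0.555 CPM at P5, and 4.49 and 3.77 CPM against 0.230 and 0.170 CPM at P15. These 3 were at 0 in MEFs as well, and their naïve and primed libraries did not overlap. The log2 fold changes of *Zfp985* were -2.39 ± 0.18 and -5.75 ± 0.27 (adjusted p = 1.21e-12 and 1.9e-20), those of *Zfp989* were -2.50 ± 0.17 and -6.29 ± 0.30 (1.3e-13 and 5.54e-20), and those of *Zfp986* were -2.41 ± 0.35 and -4.32 ± 0.45 (5.89e-07 and 1.33e-10). At P15 the direct count ratios, with exact 95% intervals, were 54.3 (30.8 to 106) for *Zfp985*, 80.3 (38.7 to 201) for *Zfp989* and 20.6 (9.68 to 52.2) for *Zfp986*.

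*Zfp992*, *Zfp990*, *Zfp991*, *Zfp993* and *Zfp984* fell less and kept a clear level in primed cells. *Zfp992* measured 82.1 and 78.8 CPM in naïve P5, 23.1 and 24.9 CPM in primed P5, 100.02 and 90.4 CPM in naïve P15, and 15.3 and 16.5 CPM in primed P15 cells. Its log2 fold change was -1.71 ± 0.06 at P5 (adjusted p = 4.05e-20), and at P15 it was -2.59 ± 0.09 (adjusted p = 9.88e-25). *Zfp990* measured 34.8 and 32.9 CPM against 8.60 and 9.98 CPM at P5 and 50.2 and 41.5 CPM against 6.54 and 7.33 CPM at P15, or log2 fold changes of -1.84 ± 0.10 and -2.73 ± 0.12 (adjusted p = 3.58e-16 and 6.3e-21). For *Zfp991*, *Zfp993* and *Zfp984*, primed cells held 43.8%, 44.7% and 61.3% of the naïve level at P5 and 23.4%, 27.6% and 41.9% at P15, in that order. MEFs expressed 4 of these 5 genes, with 10.2 CPM of *Zfp992*, 18.1 CPM of *Zfp991*, 3.91 CPM of *Zfp993* and 11.6 CPM of *Zfp984*, but only 0.0425 CPM of *Zfp990*. The share of feeder RNA in the primed levels of the 4 was not tested. Under scaling by library size alone, *Zfp991* and *Zfp993* still fell at P5 but by less than 2-fold, with log2 fold changes of -0.95 and -0.93.

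*Zfp982* and *Zfp933* were the exceptions within the cluster. *Zfp982* measured 8.40 and 8.06 CPM in naïve P5 and 3.88 and 4.66 CPM in primed P5 cells, a log2 fold change of -0.92 ± 0.17 (adjusted p = 1.74e-05). At P15 it measured 8.62 and 9.85 CPM in naïve and 8.55 and 11.02 CPM in primed cells, where the groups overlapped and the log2 fold change was 0.07 ± 0.16 (adjusted p = 0.725). *Zfp933*, whose protein is only 70.8% identical to its closest relative, a chromosome 2 member, measured 3.78 and 3.12 CPM in naïve P5 and 6.26 and 7.65 CPM in primed P5 cells. At P15 it measured 3.02 and 5.12 CPM in naïve and 8.03 and 5.40 CPM in primed cells, and the MEF library had 12.1 CPM. Its log2 fold change was 1.04 ± 0.19 at P5 (adjusted p = 1.85e-05), and at P15 it was 0.69 ± 0.23 (adjusted p = 0.00968). The P5 change was 0.88 without naïve P5 replicate 2 and 0.92 without primed P5 replicate 2, both under 2-fold. At P15 the adjusted p was 0.19 without naïve P15 replicate 1, 0.244 without primed P15 replicate 1 and 0.0725 with DESeq2.

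**Figure D3:**
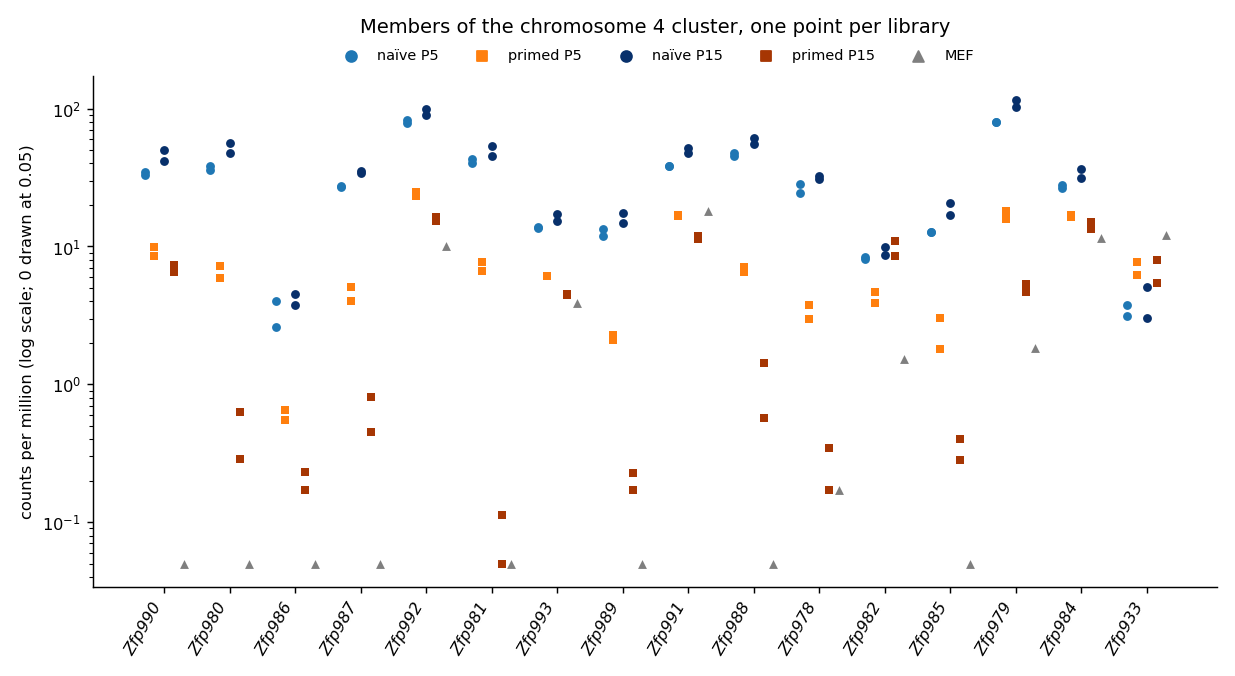
CPM of the 16 chromosome 4 members in each library, on a log axis and in genomic order, with circles for naïve, squares for primed and triangles for MEF libraries, and values of 0 drawn at 0.05. Primed P15 squares lie far below the primed P5 squares for 8 genes, among them *Zfp981*, *Zfp980* and *Zfp979*, whereas *Zfp982* and *Zfp933* show no such step.

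Many genes of the cluster share long stretches of sequence, and reads of 1 gene can align to another. The share of 100-base windows that occur in a single gene was 28.1% for *Zfp993*, 29.2% for *Zfp987*, 29.7% for *Zfp991*, 30% for *Zfp986* and 39.5% for *Zfp978*, whose values are therefore uncertain. In between lay *Zfp980* with 54.4%, *Zfp988* with 55.4%, *Zfp989* with 57.5%, *Zfp984* with 69.1% and *Zfp992* with 71.4%. Part of the reads of these genes may also be shared. The share was 98.3% for *Zfp985*, 96.4% for *Zfp990*, 87.8% for *Zfp981* and 78.5% for *Zfp979*, which fell at both passages. It was 96.9% for *Zfp982* and 100% for *Zfp933*. The interval holds 5 other protein-coding genes that could be tested. *Rex2*, *Zfp600*, *Zfp534* and *Gm21411* fell by 2.64 to 3.07 on the log2 scale at P5 and by 6.61 to 7.92 at P15. Their primed P15 levels were 0.0568 to 0.568 CPM, where 3 counts are 0.170 to 0.172 CPM. They met the P15 count minimum through the naïve libraries, and the size of their P15 falls depends on the prior count of the fit. *Gm13212*, near the start of the interval, differed by 0.64 at P5 and -0.03 at P15. Genes that fell strongly thus stood next to genes that did not.

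**Figure D4:**
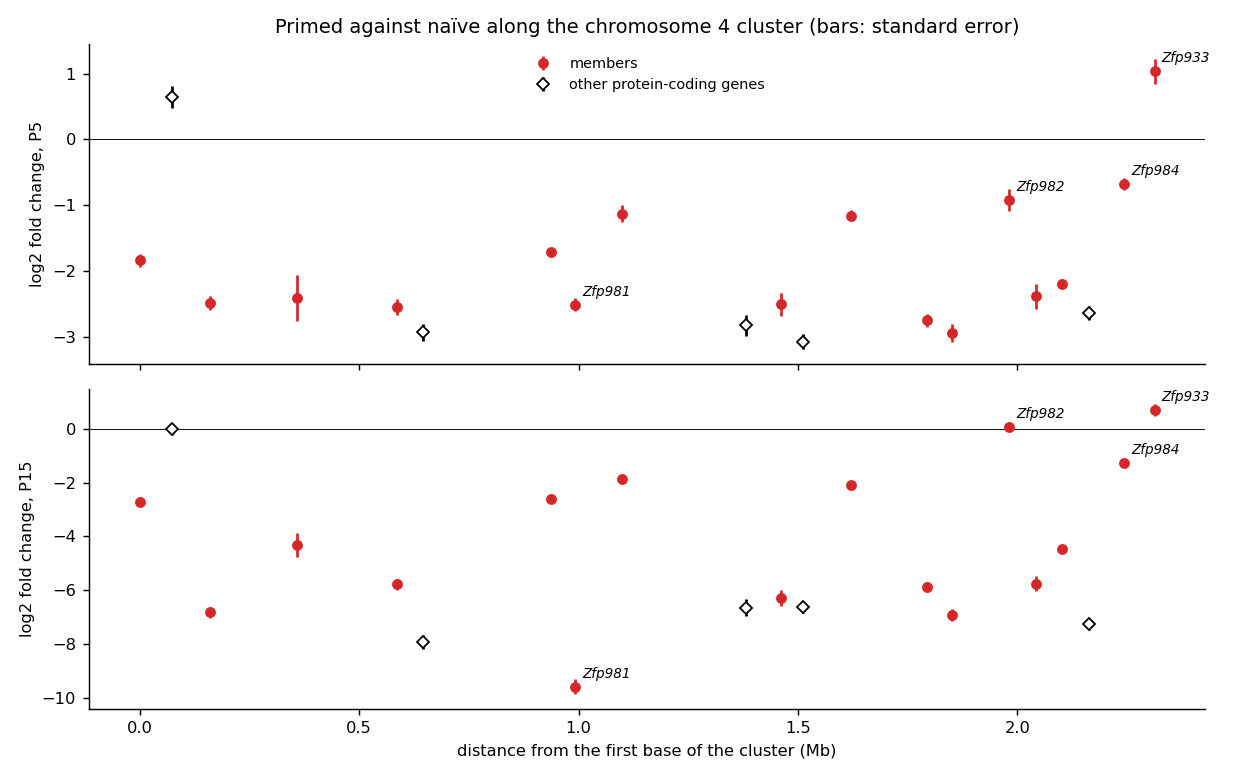
Log2 fold change of primed against naïve cells at P5 (top) and P15 (bottom) by distance from the first base of the chromosome 4 cluster in Mb, with standard errors as bars. Filled points are the 16 members and open diamonds 5 other protein-coding genes. Most points lie well below 0 across the whole interval, with *Gm13212*, *Zfp933* and, at P15, *Zfp982* near or above 0.

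The chromosome 7 cluster (chr7:42579783-43192109) also held members that fell far and members that did not. *Zfp936* measured 18.4 and 20.1 CPM in naïve P5 and 0.894 and 1.33 CPM in primed P5 cells, and 25.6 and 22.1 CPM against 0.115 and 0.341 CPM at P15. It had no count in MEFs. The log2 fold change was -4.09 ± 0.18 at P5 (adjusted p = 4e-18), the largest of all members at that passage, and -6.66 ± 0.27 at P15 (adjusted p = 3.05e-22), where the direct count ratio was 104 (exact 95% interval 52.3 to 241). *Zfp977*, low in all cells, measured 5.77 and 4.26 CPM against 0.497 and 0.777 CPM at P5 and 6.85 and 5.95 CPM against 0.344 and 0.852 CPM at P15. Its log2 fold change was -2.95 ± 0.31 at P5 (adjusted p = 1.22e-09), and at P15 it was -3.41 ± 0.33 (adjusted p = 2.98e-11). Naïve and primed libraries were fully apart for both genes.

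Their neighbours *Zfp976* and *Zfp975*, 87.6% identical in protein, behaved otherwise. *Zfp976* was at 86.1% of the naïve level in primed P5 cells, which did not pass (adjusted p = 0.177), and at 46.7% in primed P15 cells, a log2 fold change of -1.11 ± 0.16 (adjusted p = 1.47e-07). *Zfp975* rose at P5 by a log2 fold change of 0.75 ± 0.13 (adjusted p = 1.04e-05) and had -0.25 at P15, which did not pass. Both other genes of the interval that could be tested, *Gm17067* and *Gm2381*, fell by 3.43 and 2.60 at P5 and by 7.04 and 7.78 at P15 on the log2 scale. In the primed P15 libraries *Gm17067* measured 0.344 and 0.114 CPM and *Gm2381* 0 and 0.114 CPM. Both genes met the P15 count minimum through the naïve libraries, and the size of these P15 falls depends on the prior count of the fit.

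The chromosome 17 cluster (chr17:21567008-22867134) held the member that rose most. *Zfp946* measured 4.13 and 6.73 CPM in naïve P5, 17.4 and 18.3 CPM in primed P5, 4.35 and 6.84 CPM in naïve P15 and 30.3 and 34.0 CPM in primed P15 cells. MEFs had 9.23 CPM, below every primed library and above every naïve one. The log2 fold change was 1.75 ± 0.15 at P5 (adjusted p = 1.31e-11), and at P15 it was 2.49 ± 0.15 (adjusted p = 1.7e-17), and every 100-base window of the gene occurs in that gene alone. *Zfp983* was called higher at P5 at a low level, from 0.895 and 0.841 CPM to 1.94 and 2.83 CPM, a log2 fold change of 1.47 ± 0.34 (adjusted p = 3.97e-04). Without primed P5 replicate 2 it was 1.21 and no longer passed (adjusted p = 0.0191), and at P15 it was 0.94 with an adjusted p of 0.0468. *Zfp945* rose by 0.61 ± 0.10 at P5 (adjusted p = 5.87e-06), and *Zfp948*, the member with the highest MEF level per kb (8.996 CPM per kb), fell by 0.42 ± 0.13 at P15 (adjusted p = 0.00478). The fall of *Zfp948* no longer passed without naïve P15 replicate 2 or either primed P15 library (adjusted p between 0.0187 and 0.0714), nor with DESeq2 (0.0405) or library size alone (0.0335). The other 6, *Zfp942*, *Zfp943*, *Zfp944*, *Zfp947*, *Zfp994* and *Zfp995*, passed at neither passage. The median log2 fold change of the 10 was 0.38 at P5 and 0.01 at P15.

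The chromosome 8 cluster (chr8:69209038-69749970) has 3 members. *Zfp964* rose at P5 from 0.796 and 1.09 CPM to 2.88 and 3.16 CPM (log2 fold change 1.70 ± 0.31, adjusted p = 1.89e-05), and measured 0.737 and 1.28 CPM against 2.07 and 3.24 CPM at P15 (1.36 ± 0.38, adjusted p = 0.00191). The P15 call was lost without naïve P15 replicate 1 (adjusted p = 0.0216), without primed P15 replicate 2 (0.0683) and with DESeq2 (0.0275). *Zfp930*, at 14.7 to 17.5 CPM in all 8 libraries, and *Zfp963* passed at neither passage.

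The chromosome 2 cluster (chr2:175372436-178078476) is the most repetitive. *Zfp966*, *Zfp967*, *Zfp968* and *Zfp969* encode identical proteins, as do *Zfp965* and *Zfp973*, and in these 6 genes at most 26.8% of 100-base windows occur in a single gene, with 0% in *Zfp967* and *Zfp969*. Levels were low, with a cluster sum of 21.7 CPM in both naïve P5 libraries and 13.9 and 16.5 CPM in primed P15 cells. No member of the 10 passed at P5, and none of the 9 tested at P15, by edgeR or by DESeq2. At an unadjusted p under 0.05, 3 were lower and 0 higher at P5, and the same counts held at P15. The lowest was *Zfp969*, at 0.995 and 1.19 CPM in naïve P5 against 0.398 and 0.499 CPM in primed P5 cells (log2 fold change -1.25 ± 0.47, adjusted p = 0.0198). The other members, *Zfp931*, *Zfp970*, *Zfp971* and *Zfp972*, had log2 fold changes between -0.20 and 0.50 at P5. Of 26 other protein-coding genes of the interval that could be tested, mostly unnamed zinc finger genes, 6 were called lower at P5, beside 8.85% of all genes, and 10 at P15, beside 11.0%. None of the 26 was called higher by edgeR or DESeq2, and 0 were higher at an unadjusted p under 0.05. Several of those called lower, among them *Gm14406*, *Gm14409* and *Gm14412* at both passages, met the count minimum through the naïve libraries. In primed P15 cells *Gm14406* measured 0 CPM in both libraries and *Gm14412* 0.057 CPM in both. This route into the test favours a fall, and the share of such genes among all genes was not counted.

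Outside the clusters 19 of 21 members were tested, and 2 stood out. *Zfp960* measured 15.02 and 14.8 CPM in naïve P5, 5.42 and 7.10 CPM in primed P5, 15.7 and 15.9 CPM in naïve P15 and 5.05 and 6.65 CPM in primed P15 cells, with 3.66 CPM in MEFs. Its log2 fold change was -1.23 ± 0.14 at P5 (adjusted p = 3.84e-09), and at P15 it was -1.44 ± 0.16 (adjusted p = 5.83e-10), but only 31.7% of its 100-base windows occur in that gene alone. *Zfp951* measured 0.597 and 0.891 CPM in naïve P5 and 1.19 and 1.33 CPM in primed P5 cells, which did not pass. At P15 it measured 2.50 and 3.33 CPM in naïve and 0.344 and 0.284 CPM in primed cells, a log2 fold change of -3.20 ± 0.45 (adjusted p = 1.3e-07), and the direct ratio of 86 to 11 counts was 9.38 (exact 95% interval 4.99 to 19.5). Naïve and primed libraries were apart at both passages but in opposite order. The P5 order rests on 12 and 18 naïve against 24 and 24 primed counts and its difference did not pass, so no reversal is drawn from it.

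Of the 11 members that rose in primed cells at P5, 5 lay outside the clusters. *Zfp974* was called, at 3.73 and 2.82 CPM in naïve and 6.51 and 6.54 CPM in primed P5 cells (log2 fold change 1.03 ± 0.19, adjusted p = 3.01e-05), but the change was 0.81 without naïve P5 replicate 2 and 0.20 at P15. *Zfp949* and *Zfp958* rose by 0.96 ± 0.14 and 0.86 ± 0.11 at P5, and *Zfp940* and *Zfp952* by 0.50 and 0.53. None of these 5 passed at P15. There, *Zfp941*, *Zfp961* and *Zfp932* fell by 0.85, 0.75 and 0.50, and *Zfp932* had also fallen by 0.44 at P5. The members outside the clusters had a median log2 fold change of 0.15 at P5 and -0.25 at P15.

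**Figure D5:**
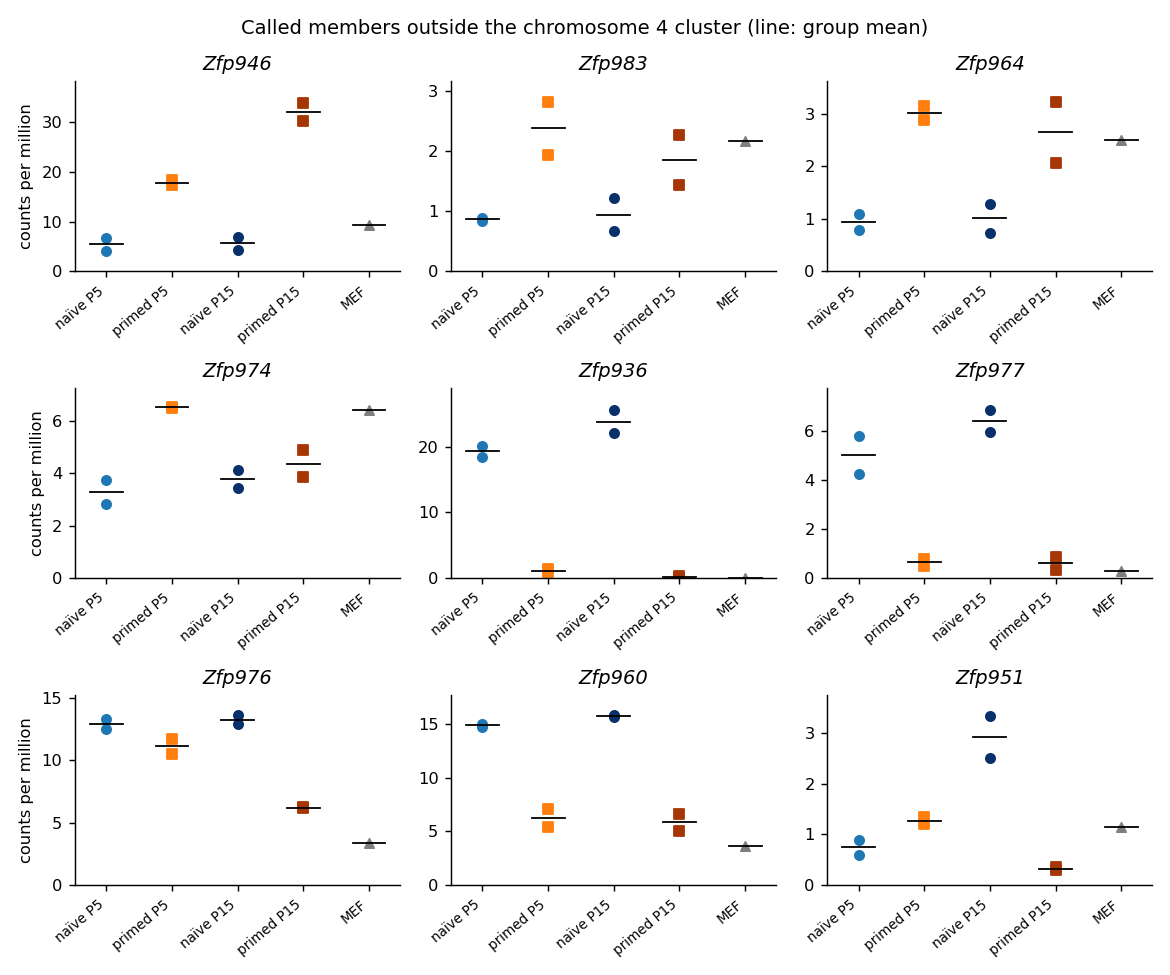
CPM of 9 called members outside the chromosome 4 cluster, with 1 point per library, a line at each group mean and axes from 0. *Zfp946* is higher in primed cells at both passages, *Zfp936*, *Zfp977* and *Zfp960* are lower at both, and *Zfp951* is highest in naïve P15 cells and lowest in primed P15 cells.

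Passage was then compared within each state. In naïve cells, 9 of the 61 members tested rose from P5 to P15, beside 4.21% of all genes at an adjusted p under 0.01, and 0 fell by edgeR, beside 5.01%. With an unadjusted p under 0.05, 18 were higher and 0 lower, and DESeq2 passed 5 higher and 0 lower. Of the 9, 7 were in the chromosome 4 cluster and rose by 0.33 to 0.54 on the log2 scale. Only *Zfp951* was called higher (log2 fold change 1.97 ± 0.36, adjusted p = 0.00225), where 0.414% of all genes were called higher and 0.721% lower. Its adjusted p was 0.0107 without naïve P15 replicate 2.

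In primed cells 21 of 61 members fell from P5 to P15, beside 22.8% of all genes, 2 rose, beside 24.3%, and 38 did not pass. Past 2-fold, 11 were called lower, beside 8.43% of all genes, and 1 higher, beside 3.18%. The 11 comprise 8 members of the chromosome 4 cluster, together with *Zfp936*, *Zfp937* and *Zfp951*. *Zfp981* fell furthest (log2 fold change -6.84 ± 0.45, adjusted p = 5.73e-13), and the others in the cluster were *Zfp980*, *Zfp978*, *Zfp989*, *Zfp987*, *Zfp985*, *Zfp988* and *Zfp979*, between -3.85 and -1.80. *Zfp937*, at 3.98 and 5.44 CPM in primed P5 and 2.12 and 1.87 CPM in primed P15 cells, fell by 1.26 ± 0.24 (adjusted p = 8.29e-05). *Zfp982* was the member called higher (1.17 ± 0.17, adjusted p = 1.92e-06), and it was 0.98 without primed P15 replicate 2. *Zfp936* lost its call without primed P15 replicate 1 (log2 fold change -1.71, adjusted p = 0.0142) and with DESeq2 (adjusted p = 0.0196), as did *Zfp951* with DESeq2 (0.0189). Without either primed P5 library the number called lower was 5 or 6, since 6 of the 11 then missed the count minimum. These 6, *Zfp936*, *Zfp951*, *Zfp978*, *Zfp981*, *Zfp985* and *Zfp989*, reached it through the primed P5 libraries only. This route into the test favours a fall, and the share of such genes among all genes was not counted. Of the 10 naïve markers, 8 also fell from P5 to P15 in primed cells, *Klf4* did not pass (47.9 and 53.9 mean CPM) and *Nanog* rose from 93.1 to 255.8 mean CPM. Among the 8, *Zfp42* went from 17.3 to 0.228 mean CPM and *Nr0b1* from 5.69 to 0.201 mean CPM, and the part of residual naïve cells in the P5 levels of the members was not tested.

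The difference between the passages was tested directly as the change of the primed against naïve effect from P5 to P15. It was called negative for 10 members, beside 4.80% of all genes, and positive for 1, beside 2.36%. The 10 were 8 chromosome 4 members, *Zfp936* and *Zfp951*. The values ranged from -7.07 ± 0.43 for *Zfp981* (adjusted p = 1.59e-14) to -2.26 ± 0.14 for *Zfp979* (adjusted p = 3.53e-14). *Zfp992*, *Zfp990*, *Zfp991*, *Zfp993* and *Zfp984* passed with smaller differences, between -0.93 and -0.57. The positive one was *Zfp982*, at 1.01 ± 0.23 (adjusted p = 0.00109), and it dropped under 2-fold, to between 0.82 and 0.98, when naïve P5 replicate 1, naïve P15 replicate 1, primed P5 replicate 1 or primed P15 replicate 2 was left out. Without primed P5 replicate 1 or primed P15 replicate 2 it also no longer passed (adjusted p = 0.0194 and 0.014). Over the 62 members tested the median was -0.53.

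Partners of KRAB proteins were then counted. Of 23 genes of the Trim28 pathway, 1 was called lower at P5, beside 8.85% of all genes, and 3 at P15, beside 11.0%. None of the 23 was called higher at either passage by edgeR, beside 13.5% and 12.2% of all genes, and 5 were higher at each at an unadjusted p under 0.05. At an adjusted p under 0.01 and any fold, 15 were lower and 4 higher at P5, beside 31.1% and 31.2% of all genes, and 10 were lower and 4 higher at P15, beside 28.4% and 28.2%. *Trim28* itself fell from 1598 and 1612 CPM to 672 and 658 CPM at P5 (log2 fold change -1.24) and from 1653 and 1669 CPM to 972 and 895 CPM at P15 (-0.84). *Setdb1*, its histone methyltransferase partner, was at -0.21 and 0.00. The 3 called at P15 were *Morc3* (-1.15), *Resf1* (-1.03) and *Smarcad1* (-1.18). In the other direction, but under 2-fold, *Suv39h1* rose at both passages (0.82 and 0.76) and *Atf7ip* rose at P5 (0.54). The list's median log2 fold change was -0.26 at P5 and -0.11 at P15.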

How the data were processed

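RNA-seq of 9 libraries was used, grouped by the state, passage and replicate in the labels. Per the study's methods and the labels, the authors trimmed reads with Cutadapt, aligned them with HISAT2 to mm10, allowing up to 20 alignments a read, and used featureCounts with Ensembl gene models. The authors deposited raw counts. How strand and reads with several alignments were counted, and the annotation release, are not given in the sources used here. Totals were 14378051 to 20985136 counts in naïve and primed libraries and 25646547 in MEFs. A count of 0 allows up to 3 counts, or 0.148 to 0.221 CPM in naïve and primed libraries, for counting error only.

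Counts were tested with edgeR 4.0.16 (R 4.3.3) by the quasi-likelihood test with Benjamini-Hochberg adjustment over all genes with at least 10 counts in at least 2 libraries of the fit, with TMM factors, separately for each pair of groups and in 1 fit of 8 libraries for the difference between passages. CPM used TMM factors over the 9 libraries. DESeq2 1.42.0 was an alternative, with other scalings, no count filter, a replicate block and each library left out in turn. The fit was tested on simulated data. Names, coordinates, exon lengths and proteins came from GENCODE M21 on mm10, and promoters from RefSeq (GRCm38.p6), where 54 of 64 members matched and 49 started within 100 bases of the GENCODE start. Identity was counted in global alignments with Biopython 1.88, for proteins over the length of the shorter protein.

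Replicate numbers were not taken to pair the libraries: deviations of same-numbered libraries from their group means correlated at -0.127 between states at P5 and at -0.19 at P15, and at 0.161 in naïve and 0.159 in primed cells between passages, with 2 pairs in each comparison. Members named are those called in any comparison, the 5 highest per kb and the 3 highest per kb in MEFs, with every cluster member named once. The symbol rule used no measured value, but it and the gene lists were chosen with earlier results of these data known.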

Additional observations from a re-analysis of the deposited data

Results flagged for a closer look

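For 11 members the difference between primed and naïve cells changed between P5 and P15 by at least 2-fold with an adjusted p under 0.01 in edgeR's test of that difference, which draws on all 8 libraries. The log2 difference, P15 minus P5, was -7.07 for *Zfp981*, -4.31 for *Zfp980*, -3.96 for *Zfp978*, -3.77 for *Zfp989*, -3.35 for *Zfp985*, -3.22 for *Zfp987*, -3.11 for *Zfp988* and -2.26 for *Zfp979*, all of the chromosome 4 cluster. It was -2.56 for *Zfp936* of chromosome 7 and -3.97 for *Zfp951* of chromosome 5. It was 1.01 for *Zfp982* of chromosome 4, in the other direction. For *Zfp981*, *Zfp978*, *Zfp989*, *Zfp985*, *Zfp936* and *Zfp951* no primed P15 library reached 10 counts, so the size of the difference depends on the prior count of the fit. No group has 4 or more libraries, so single libraries were not tested for standing apart.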

How the results depend on the processing

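Replicate numbers were not taken to pair the libraries, since same-numbered libraries correlated below 0 between states and only at 0.161 and 0.159 between passages. With a replicate block, 5 members were called higher and 16 lower at P5, and 2 higher and 19 lower at P15, the same numbers as without it, and a crossed replicate block, added after seeing the data, gave the same numbers too. At P15, *Zfp948* and *Zfp933*, both under 2-fold, did not pass with the replicate block (adjusted p = 0.0121 and 0.0341). With library size alone, 8 members were called higher at P5, where 5 were called with TMM, and 0 had a positive difference between passages. With DESeq2, 1 member was called higher at P15. With no low-count filter, 0 were called higher in naïve cells between passages. Leaving out 1 library at a time gave 3 to 5 members higher and 16 to 17 lower at P5, and 1 to 3 higher and 12 to 19 lower at P15. The 12 came from leaving out either naïve P15 library, when 7 members missed the count minimum. Between passages it gave 0 to 1 higher in naïve cells, and 0 to 1 higher and 5 to 12 lower in primed cells. For the difference of the effects it gave 0 to 2 positive and 10 to 12 negative. No named member reversed direction past the threshold at P5 or P15 under any alternative run. A gap of 0.5 Mb in place of 1 Mb gave 6 clusters with 41 members, and 2 Mb left 5 clusters with 43. With 2 libraries per group from 1 line, the results describe these cultures.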
